A study of Drosophila melanogaster with 12 samples.

Results

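The nuclear genes of oxidative phosphorylation were followed through antennae and antennal discs of Drosophila melanogaster. Members were the nuclear genes whose symbol starts with ND-, UQCR-, COX and a digit, ATPsyn or Sdh. The rule found 88 symbols, of which 86 were among the 15682 genes counted, and COX7CL and ND-30 were not analysed here. Of the 86 genes, 62 encode subunits in general use, 23 are duplicate copies of such genes (their symbols mostly end in L), and Sdhaf3 is named as an assembly factor of succinate dehydrogenase. The subunits comprise 33 of complex I, 4 of complex II, 6 of complex III, 8 of complex IV and 11 of complex V. Subunits with other symbols, such as RFeSP of complex III, levy of complex IV and sun of complex V, lie outside the rule. Levels, sums and shares by complex below therefore cover only the subunits of the rule. The members are spread over the genome, with 20 on chromosome arm 3R, 19 on 3L, 16 on 2R, 16 on 2L, 13 on X and 2 on chromosome 4.

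Oxidative phosphorylation takes place in the inner mitochondrial membrane. Complex I (the ND- genes) and complex II (Sdh) pass electrons from NADH and succinate to ubiquinone, complex III (UQCR) passes them to cytochrome c, complex IV (COX) passes them to oxygen, and complex V (ATPsyn) uses the resulting proton gradient to make ATP. Complexes I, III, IV and V combine subunits encoded in the nucleus with subunits encoded in the mitochondrial genome, whereas complex II is encoded wholly in the nucleus. Sensory neurons maintain ion gradients and are known for a high demand for ATP.

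The mutant animals carried amos3, an allele of the proneural gene amos, which specifies the precursors of antennal sensilla that house neurons with odorant receptors (Or). The wild-type animals were w1118, a separate stock. Samples came from 4 groups of 3 each, namely amos adult antennae (replicates 1, 2 and 3), wild-type adult antennae (5, 6 and 7), amos antennal discs of third-instar larvae (1, 2 and 3) and wild-type discs (1, 2 and 5). Animals were kept at 22 °C. Adult samples pooled about 300 antennae of both sexes taken 0 to 4 h after eclosion, and disc samples pooled 50 discs. Polyadenylated RNA was made into stranded libraries, and the deposited values are reads per gene.

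Reads on genes numbered 36396746 to 50252338 per amos adult library and 25150198 to 25721392 per wild-type adult library, and 39247300 to 43984887 per amos disc library and 26796503 to 27661261 per wild-type disc library. Every amos library was thus deeper than every wild-type library, and genotype, stock background, depth and any batch that followed genotype cannot be told apart. For amos itself no library held more than 3 reads, so the labels could not be checked by it. Orco, the co-receptor of the Or family, was at 57.5 to 115.1 CPM in amos adults and 2769 to 3104 CPM in wild-type adults. The 3 Ir co-receptors summed to 1118 to 1263 CPM in amos adults and 540.0 to 592 CPM in wild-type adults, and all 3 rose (edgeR). Support cell markers summed to 169 to 184 CPM in amos adults and 435 to 473 CPM in wild-type adults, and 2 of 3 fell. Adult amos antennae had 739.6 to 914 CPM (reads per 1000000 reads on genes) over the neuron markers, against 1444 to 1521 CPM in wild-type adults, and all 4 neuron markers fell (edgeR). In bulk tissue, fewer cells of a type and less RNA per cell cannot be told apart. Wild-type disc 5 stood apart from the other wild-type discs, with a chi-square per degree of freedom of 106 and 143 against them, beside 33.7 between discs 1 and 2. It also held 851 CPM of muscle markers, against 101 and 122 CPM in the other wild-type discs and 54.3 to 71.9 CPM in the amos discs. Wild-type disc 2 held 2099 CPM of fat body markers, against 22.0 and 88.3 CPM in the other wild-type discs. The part of these differences in the values below was not tested, and results that change without a library are given with and without it.

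The members made up a steady share of the messages counted in adult antennae. They took 2.26 to 2.53% of the reads in amos adults and 2.33 to 2.42% in wild-type adults, against 0.997 to 1.07% in amos discs and 0.867 to 1.00% in wild-type discs. Of the 62 subunits, 61 were at or above 1 FPKM (CPM divided by the exon length in kilobases) in all 4 group means. The exception was ND-B8, an accessory subunit of complex I, with at most 2 reads in any library. Whether its message was absent or its reads were not counted was not tested.

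On the FPKM scale, which allows levels of different genes to be compared, the level of the subunits differed widely between and within complexes. The median subunit was at 274 FPKM in amos adults and 256 FPKM in wild-type adults, against 90.3 FPKM in amos discs and 83.7 FPKM in wild-type discs. By complex, the median levels in amos adults were 214 FPKM for complex I, 412 for complex II, 289 for complex III, 504 for complex IV and 524 for complex V. In wild-type adults these medians were 218 FPKM for complex I, 351 for complex II, 269.6 for complex III, 590.1 for complex IV and 543 for complex V. Complex V thus had the median level 2.49 times that of complex I in wild-type adults. Within wild-type adults the expressed subunits spanned 70.4-fold, with ND-AGGG lowest at 20.0 FPKM and ATPsynC, the subunit of the rotating membrane ring, highest at 1409 FPKM. The ring holds several copies of this subunit, and its message was also the most abundant of the subunits in amos adults, at 1353 FPKM.

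The subunits were far more abundant in the adult antenna than in the larval disc, in both genotypes and in every complex. All 61 tested subunits were higher in adults than in discs in amos (median log2 fold change 1.84) and likewise in wild-type (1.94). Over all members, 65 of 66 rose and 1 fell in amos, where 85.6% of all 9985 tested genes were called (43.8% higher and 41.8% lower). In wild-type 66 of 67 rose and 1 fell, where 86.6% of all 9770 tested genes were called (43.2% higher and 43.4% lower). Adults and discs did not overlap for 65 of the 66 members in amos, beside 88.6% of all genes, and for 65 of the 67 in wild-type, beside 90.5%. The calls of COX7AL, COX7AL2 and UQCR-11L in amos and of ATPsynepsilonL, COX5BL, COX6CL, COX7AL and UQCR-11L in wild-type are of duplicate copies that met the filter on low counts in 1 stage only, and are no support. Since most genes were called, direction and size describe the members better than the count. The change ranged from 0.82 to 3.12 among subunits in amos and from 0.51 to 2.74 in wild-type, and it was at least 1 for 60 subunits in amos and 58 in wild-type. The smallest, ND-AGGG in wild-type (0.51, edgeR adjusted p = 0.042), was lost without wild-type adult 6 or 7 or wild-type disc 1, its groups overlapped, and its value was -0.19 with the trend of fold change with exon length removed. With the same trend removed, the subunit medians were 1.21 in amos and 1.30 in wild-type, and with scaling on the cytoplasmic ribosomal protein genes all genes shifted by a median of 1.73 in amos and 1.43 in wild-type. In each of the 6 fits per genotype that left out 1 library, the count that rose was 65 in amos and 64 to 67 in wild-type.

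**Figure D1:**
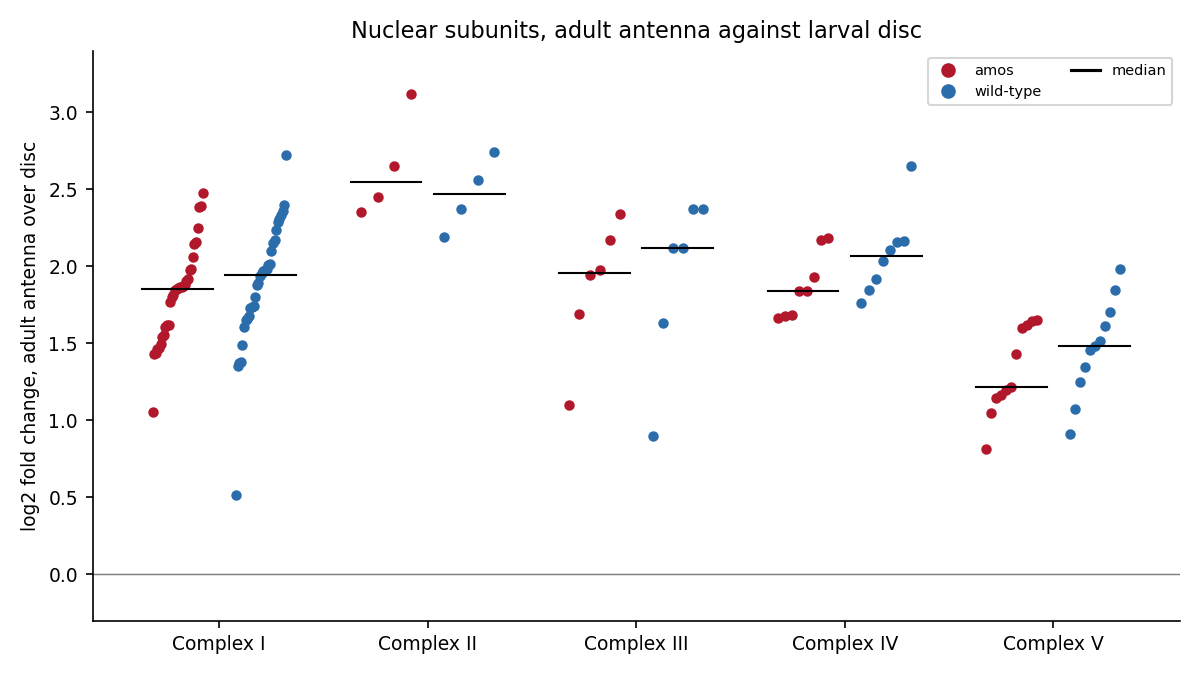
Log2 fold change of each tested subunit, adult antenna over larval disc (edgeR), by complex, in amos and wild-type; each point is 1 gene and the bars are medians. All 61 subunits lie above 0 in both genotypes, and complex II lies highest by median (2.55 in amos, 2.47 in wild-type) and complex V lowest (1.22 in amos, 1.48 in wild-type).

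The complexes changed with stage by different amounts. Summed over its subunits, complex II was at 2166, 2317 and 2088 CPM in amos adults and 1931, 1885 and 1821 CPM in wild-type adults, against 428, 469.8 and 436 CPM in amos discs and 424, 414 and 462 CPM in wild-type discs. Its means were 4.93 times as high in adults as in discs in amos and 4.34 times in wild-type. Complex V was at 9902, 9575 and 8856 CPM in amos adults and 9486, 9444 and 9155 CPM in wild-type adults, against 5686, 5199.7 and 5285 CPM in amos discs and 4766, 4555 and 5160.1 CPM in wild-type discs. Its ratios of adult to disc were 1.75 in amos and 1.94 in wild-type, the smallest of the 5 complexes. Complexes I, III and IV had ratios of 2.79, 2.79 and 2.95 in amos and of 3.02, 2.97 and 3.64 in wild-type.

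The make-up of the subunit messages therefore differed between the stages. Complex V supplied 39.2 to 39.5% of all subunit CPM in amos adults, against 52.1 to 53.1% in amos discs, and 39.0 to 39.4% in wild-type adults, against 51.4 to 52.8% in wild-type discs. Complex II supplied 8.56 to 9.55% in amos adults, against 4.00 to 4.70% in amos discs, and 7.79 to 8.03% in wild-type adults, against 4.60 to 4.78% in wild-type discs. For all 5 complexes the shares of adults and discs did not overlap in either genotype. The two-sided exact permutation p was 0.1 in each of these comparisons, the smallest that 3 against 3 samples allow, so none could pass the threshold.

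**Figure D2:**
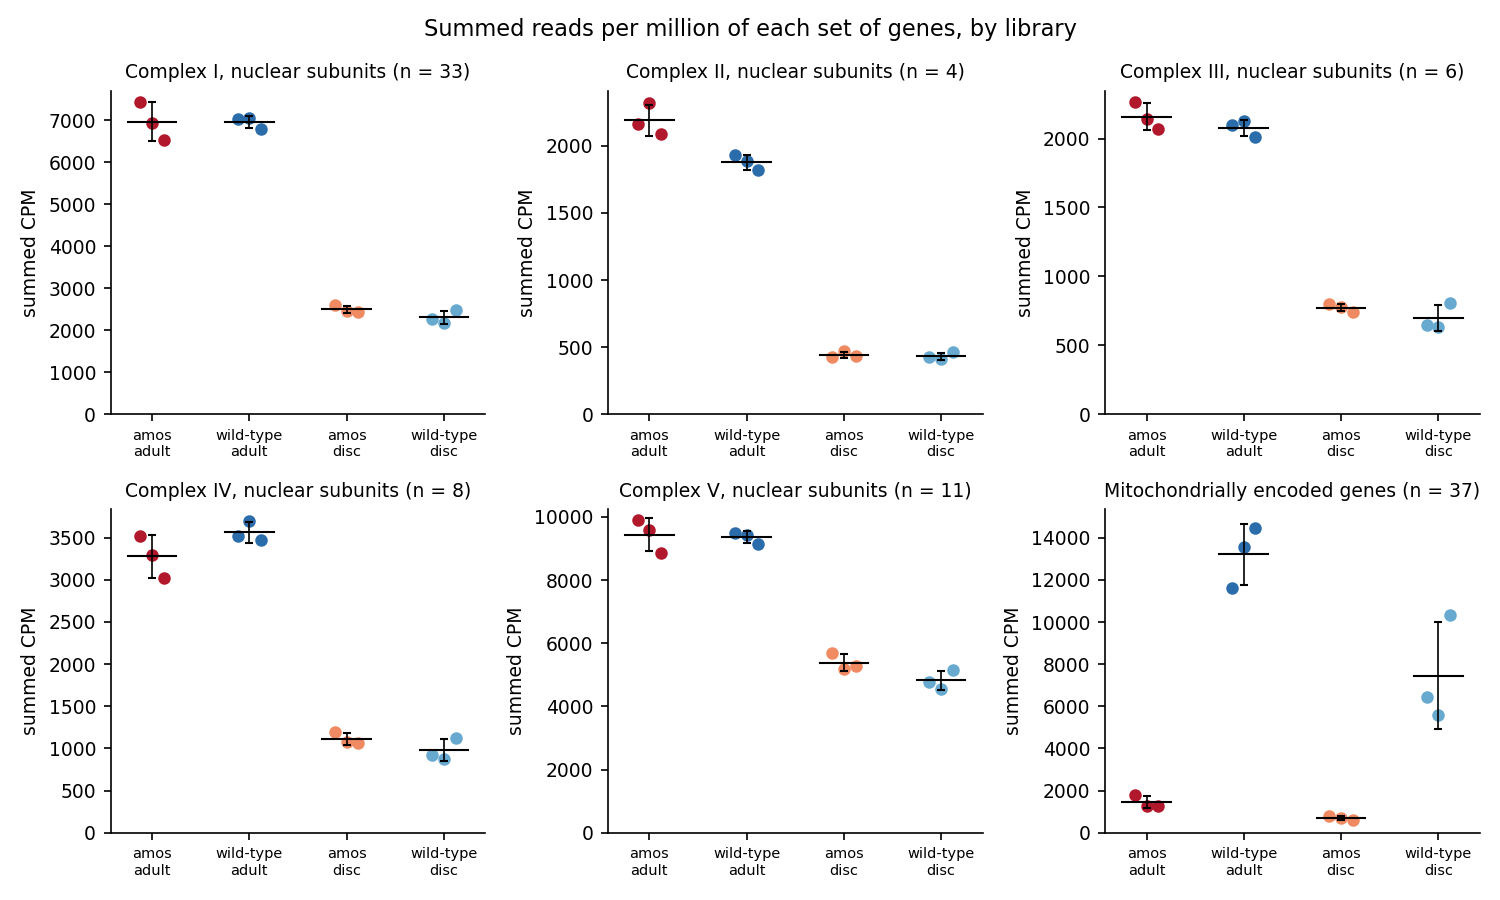
Summed CPM of the nuclear subunits of each complex in each library, with the mean (line) and SD (error bar, n = 3) of each group. The adult groups of both genotypes lie above the disc groups in every complex, and only in complex II do all amos adults (2088 to 2317 CPM) lie above all wild-type adults (1821 to 1931 CPM).

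All 4 succinate dehydrogenase genes followed the complex II pattern. SdhD, a membrane anchor, was at 450.2, 438 and 428 FPKM in amos adults and 345, 355 and 322 FPKM in wild-type adults, against 68.5, 65.0 and 57.0 FPKM in amos discs and 55.9, 53.1 and 74.6 FPKM in wild-type discs. Its log2 fold changes from disc to adult, 3.12 in amos and 2.74 in wild-type, were the largest of any subunit. SdhA, the flavoprotein that oxidises succinate, was at 379.6, 413 and 373 FPKM in amos adults and 295, 285 and 294 FPKM in wild-type adults, against 72.6, 82.5 and 78.5 FPKM in amos discs and 76.6, 75.6 and 78.4 FPKM in wild-type discs. SdhB, the iron-sulfur subunit, rose from disc to adult by 2.36 in amos and 2.56 in wild-type on the log2 scale, and SdhC, the other anchor, by 2.45 and 2.37.

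The catalytic and ring subunits of complex V stood at the other end. ATPsynC was at 1427, 1474 and 1157 FPKM in amos adults and 1399, 1438 and 1389 FPKM in wild-type adults, against 997, 939 and 961 FPKM in amos discs and 817, 782 and 819 FPKM in wild-type discs, a log2 fold change from disc to adult of 0.82 in amos and 1.07 in wild-type. ATPsynbeta, the catalytic subunit, was at 1339, 1217 and 1349.5 FPKM in amos adults and 1091, 1007 and 1027 FPKM in wild-type adults, against 815, 687 and 726 FPKM in amos discs and 661, 633 and 702 FPKM in wild-type discs. In the discs both genes were therefore already far above the disc median of the subunits. Of complex III, UQCR-C1, a core protein, rose by 1.69 in amos and 1.63 in wild-type, and UQCR-14 rose by 2.34 in amos and 2.37 in wild-type. The exons of UQCR-14 lie wholly within those of a gene on the opposite strand, so its count depends on how strand was used. Of complex IV, COX7B rose by 2.17 in both genotypes and COX7A by 1.68 in amos and 1.85 in wild-type. ND-B14.5A, an accessory subunit named here after its values were seen, had the largest change within complex I, 2.47 in amos and 2.72 in wild-type.

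In adult antennae, genotype moved single subunits by small amounts and in both directions. In amos adults 10 members rose and 18 fell of 68 tested, or 41.2% called, beside 47.0% of all 9724 genes tested (22.7% higher and 24.4% lower). The share of members called was thus not above the background, and the median log2 fold change of the members was -0.05. The genotypes did not overlap for 36 of the 68, beside 59.4% of all genes. Of the 61 tested subunits, 9 rose and 15 fell, and 58 changed by under 0.5 on the log2 scale. The direction depends on scaling: relative to the ribosomal protein genes, which shifts the median of all genes by 0.25, 23 members were higher and 3 lower. Those cytoplasmic ribosomal protein genes themselves had 6 higher and 46 lower of 83 in amos adults. In the fits that left out 1 library the count that rose was 4 without wild-type adult 5, 5 without wild-type adult 6 or 7 and 16 without amos adult 3, and the count that fell was 9 without wild-type adult 5 and 10 without wild-type adult 6. Of the 68 tested members, 64 met the filter on low counts (at least 0.322 CPM in 3 libraries) in both groups, all 61 subunits among them. The duplicate copies COX5BL and COX6CL met it in wild-type adults only, and COX7AL2 and ATPsynepsilonL in amos adults only, so the calls of the first 3 are no support. Among the other called members, ND-SGDH, ND-AGGG, SdhA, SdhD and the duplicate copy UQCR-11L passed under every scaling and in every such fit. ND-39, COX4, ND-B17, ND-B15, ND-B14.7 and ATPsynB also passed in every such fit but not with ribosomal protein scaling, under which ND-39 was at -0.31 (edgeR adjusted p = 0.072) and COX4 at -0.29 (edgeR adjusted p = 0.073). Among the rest, the call of ATPsynE was lost without wild-type adult 5, 4 (COX8, ND-MLRQ, ND-18 and ATPsyngamma) without wild-type adult 5 or 6, and 4 (SdhC, ATPsynbeta, COX5B and ND-B18) without any 1 of the wild-type adults. SdhB, ND-24, ND-49, ND-PDSW and ATPsyndelta passed in at most 2 of the 6 fits, with an adjusted p of up to 0.191 (ATPsyndelta, edgeR).

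**Figure D3:**
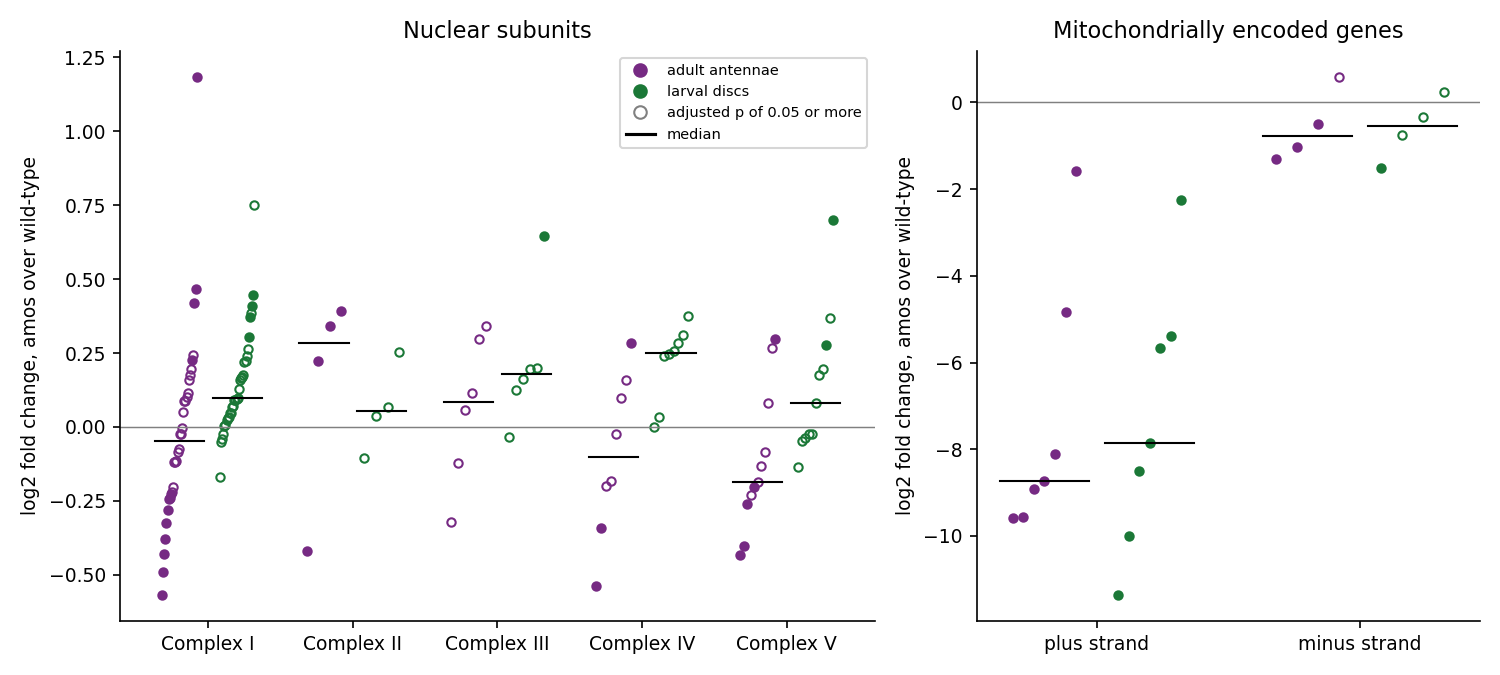
Log2 fold change, amos over wild-type, in adult antennae and larval discs (edgeR), of each tested nuclear subunit by complex (left) and each tested mitochondrially encoded gene by strand (right). Filled points passed an adjusted p of 0.05 and the bars are medians. Most nuclear points lie within 0.5 of 0, with ND-AGGG highest in both tissues (1.18 in adults, 0.75 in discs). The mitochondrially encoded genes reach down to -9.60 in adults and -11.36 in discs.

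Complex II had the ratio of summed levels farthest from 1 in adults, 1.17 for amos over wild-type, beside 1.00 for complex I, 1.04 for complex III, 0.921 for complex IV and 1.01 for complex V. As a share of the subunit CPM, complex II supplied 8.56 to 9.55% in amos adults and 7.79 to 8.03% in wild-type adults. Complex IV supplied 13.4 to 13.9% in amos adults and 14.6 to 15.3% in wild-type adults, and complex III 8.84 to 9.16% in amos adults and 8.65 to 8.78% in wild-type adults. The shares of these 3 complexes did not overlap between the genotypes, and each had the smallest exact permutation p possible (p = 0.1). These shares cover subunits within the symbol rule, with ND-MLRQ counted in complex I, and other assignments were not tried. SdhA averaged 388 ± 21.6 FPKM in amos adults and 291 ± 5.37 FPKM in wild-type adults (SD, n = 3 each), a log2 fold change of 0.39 ± 0.08 (SE; edgeR adjusted p = 0.0039). SdhD averaged 439 ± 11.3 FPKM in amos adults and 340.3 ± 16.9 FPKM in wild-type adults, a change of 0.34 ± 0.07 (edgeR adjusted p = 0.0045). SdhC, at 458, 430.3 and 419.9 FPKM in amos adults and 372, 364 and 365 FPKM in wild-type adults, rose by 0.22 ± 0.06 (edgeR adjusted p = 0.024), and passed in 3 of 6 fits that left out a library. SdhB went the other way, with 250.2, 328 and 247 FPKM in amos adults and 389, 371 and 324 FPKM in wild-type adults. Its groups overlapped, and its fall of 0.42 ± 0.13 (edgeR adjusted p = 0.03) passed in 2 of 6 such fits.

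Of the 32 tested complex I subunits, 4 rose and 8 fell in amos adults, with a median of -0.05. ND-AGGG, an accessory subunit of the membrane arm in mammals, showed the largest change among the subunits. It was at 44.4, 54.2 and 40.2 FPKM in amos adults and 16.8, 21.8 and 21.5 FPKM in wild-type adults, a log2 fold change of 1.18 ± 0.14 (edgeR adjusted p = 0.00037). In discs it was at 35.2, 23.9 and 25.1 FPKM in amos and 13.5, 20.7 and 16.4 FPKM in wild-type, a change of 0.75 ± 0.21 that did not pass (edgeR adjusted p = 0.062). ND-SGDH, another accessory subunit of the membrane arm, was at 286, 254 and 247 FPKM in amos adults and 187, 186 and 186 FPKM in wild-type adults, a change of 0.47 ± 0.07 (edgeR adjusted p = 0.0012). ND-MLRQ, whose mammalian counterpart is found with complex IV, was at 1215, 917 and 1158 FPKM in amos adults and 768, 801 and 851 FPKM in wild-type adults, a change of 0.42 ± 0.12 (edgeR adjusted p = 0.019) that passed in 4 of 6 fits without a library. ND-49, a core subunit near the ubiquinone site, rose by 0.23 but passed in 1 of 6 such fits.

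ND-39, an accessory subunit of the matrix arm, fell most among the complex I subunits. It was at 225, 237 and 234 FPKM in amos adults and 360.0, 346 and 308 FPKM in wild-type adults, and the groups did not overlap. The log2 fold change was -0.57 ± 0.08 (edgeR adjusted p = 0.001), past the threshold in all 6 fits that left out a library. ND-B17, ND-B15 and ND-B14.7, accessory subunits of the membrane arm, fell by 0.49, 0.43 and 0.38 on the log2 scale, each in all 6 such fits. ND-18, ND-24, ND-B18 and ND-PDSW fell by 0.33, 0.28, 0.24 and 0.23. With ribosomal protein scaling the values of ND-B18 and ND-PDSW became 0.01 and 0.02.

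None of the 6 complex III subunits within the symbol rule passed the test in amos adults by edgeR. RFeSP, a complex III subunit outside the rule, is given below. At an unadjusted p under 0.05, 1 of the 6 was higher and 1 lower, and DESeq2 called 1 higher and 1 lower. UQCR-C1 was at 403, 449 and 447 FPKM in amos adults and 418, 401 and 363 FPKM in wild-type adults, groups that overlapped.

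In complex IV, 1 subunit rose and 2 fell of 8 in amos adults. COX4, which lies next to the catalytic core, was at 549.7, 549 and 439 FPKM in amos adults and 749, 784 and 659 FPKM in wild-type adults. It fell by 0.54 on the log2 scale (SE 0.10, edgeR adjusted p = 0.0039). COX8, a small membrane subunit, was at 329, 363 and 357 FPKM in amos adults and 443, 467 and 401 FPKM in wild-type adults, a fall of 0.34 (edgeR adjusted p = 0.014). COX5B, which binds zinc on the matrix side, was at 313, 284 and 324 FPKM in amos adults and 231, 256 and 257 FPKM in wild-type adults, a log2 fold change of 0.29 (edgeR adjusted p = 0.031). COX7B and COX7A did not pass, with log2 fold changes of 0.16 and -0.02. Summed over the complex, the adult means were in a ratio of 0.921, amos over wild-type.

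In complex V, 1 subunit rose and 4 fell of 11 in amos adults, and the summed level differed by a ratio of 1.01. ATPsynbeta rose by 0.30 ± 0.08 (edgeR adjusted p = 0.02), with groups that did not overlap, and passed in 3 of 6 fits that left out a library. ATPsynB of the peripheral stalk was at 573, 539 and 489 FPKM in amos adults and 692, 729 and 659 FPKM in wild-type adults, a fall of 0.40 (edgeR adjusted p = 0.0036). ATPsynE, which holds the synthase in dimers, fell by 0.43 on the log2 scale. ATPsyngamma and ATPsyndelta, of the central stalk, fell by 0.26 and 0.20. With ribosomal protein scaling the value of ATPsyndelta became 0.05. The exons of ATPsyndelta share 35.6% of their length with another gene.

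**Figure D4:**
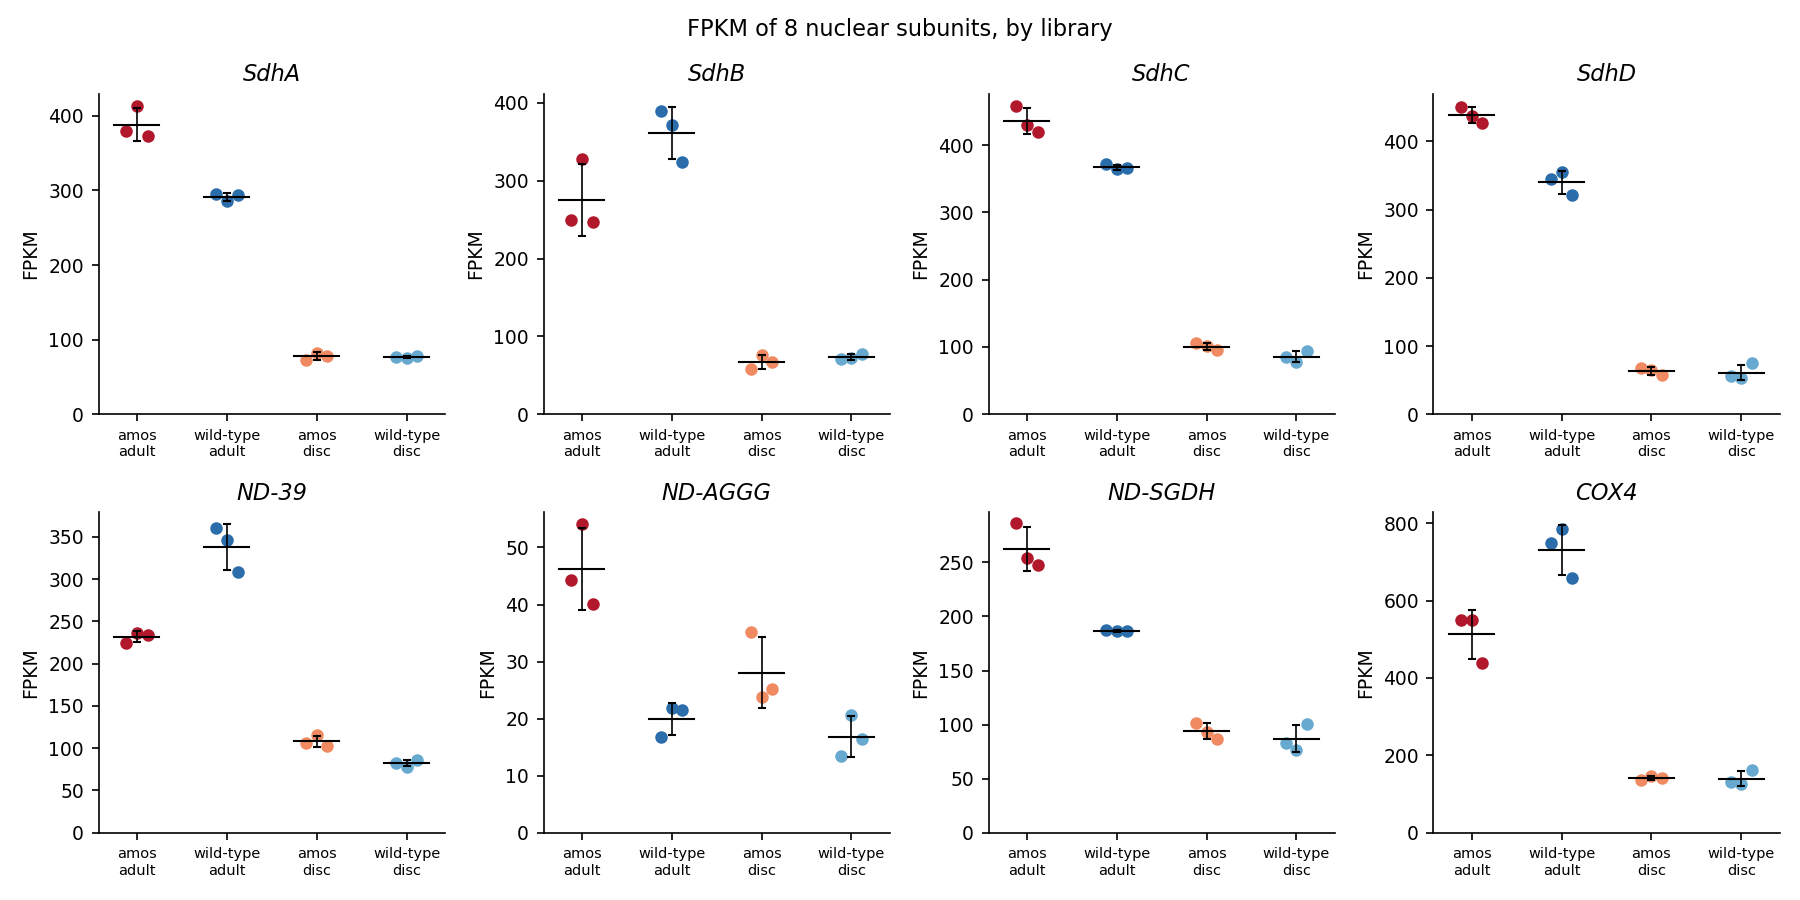
FPKM of 8 members in each library, with the mean (line) and SD (error bar, n = 3) of each group. SdhA, SdhD, ND-AGGG and ND-SGDH lie higher in all amos adults than in all wild-type adults, and ND-39 and COX4 lie lower.

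In larval discs fewer genes were called between the genotypes than in adults, a count that does not compare the sizes of the differences. Of the 61 subunits, 58 changed by under 0.5 on the log2 scale in discs. In amos discs 8 members rose and none fell of 63 tested, or 12.7% called, beside 13.2% of all 8909 genes tested (6.57% higher and 6.63% lower). For lower members the count was 0 at an unadjusted p under 0.05 by edgeR and 0 by DESeq2. The values leaned upwards, with a median log2 fold change of 0.13 and 52 of the 63 above 0, and the genotypes did not overlap for 16 of the 63, beside 41.3% of all genes. Markers of other cell types moved beside these values. Retina markers summed to 90.4 to 121 CPM in amos discs and 207 to 257 CPM in wild-type discs, with 1 higher and 2 lower of 4 tested by edgeR. Glia markers summed to 263 to 289 CPM in amos discs and 333 to 461 CPM in wild-type discs, with 1 of 4 lower. The part of either in the disc values was not tested. Fold changes in discs also declined with exon length, with a Spearman rho of -0.212 across all genes and -0.368 across the 61 subunits (genes are not independent replicates). The subunits are short, with a median exon length of 848.5 bases against 2067 bases for all tested genes. With the length trend removed the subunit median was 0.02, with 37 of 61 above 0. No call held in every fit that left out a library: the count was 0 without wild-type disc 1, 2 without wild-type disc 2, 20 without wild-type disc 5, 1 without amos disc 1, 3 without amos disc 2 and 0 without amos disc 3. The largest adjusted p of a called member in such a fit was 0.15 (ATPsynC, edgeR), and the members' median was 0.25 without wild-type disc 5.

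ATPsynCF6, the coupling factor of the peripheral stalk, was at 283, 249 and 265 FPKM in amos discs and 169, 145 and 182 FPKM in wild-type discs, a log2 fold change of 0.70 ± 0.10 (edgeR adjusted p = 0.012). It passed in 3 of 6 fits that left out a library. UQCR-6.4, a small subunit of complex III, was at 92.8, 72.1 and 82.9 FPKM in amos discs and 52.4, 46.4 and 61.2 FPKM in wild-type discs, a change of 0.65 ± 0.13 (edgeR adjusted p = 0.03). It shares 40.5% of its exon length with another gene. ND-13B, of the matrix arm, was at 73.7, 72.7 and 70.6 FPKM in amos discs and 53.7, 48.4 and 59.2 FPKM in wild-type discs, a change of 0.44 ± 0.09 (edgeR adjusted p = 0.026). None of these groups overlapped. ND-23, ATPsynC, ND-19 and ND-39 also rose, by 0.37, 0.28, 0.30 and 0.41 on the log2 scale. ATPsynepsilonL, a duplicate copy, completes the 8. No complex IV subunit passed the edgeR test in discs, although all 8 had values above 0 (median 0.25), with 5 at an unadjusted p under 0.05 and 1 called by DESeq2.

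ND-39 was the only member called in both tissues, and its direction differed between them. It was at 106, 116 and 102 FPKM in amos discs and 82.8, 78.2 and 85.6 FPKM in wild-type discs, a rise of 0.41 ± 0.07 (edgeR adjusted p = 0.022) that passed in 1 of 6 fits without a library, whereas in adults it fell by 0.57 on the log2 scale. The interaction of genotype and stage is the adult difference minus the disc difference, estimated in a fit of all 12 samples with its own scaling. It need not equal the difference between the separate fits, and its median over all tested genes was 0.085. For ND-39 it was -0.90 ± 0.11 (edgeR adjusted p = 0.00028) and passed in all 12 fits that left out a library. Over the members, 2 interactions were positive and 8 negative of 68 tested, or 14.7% called, beside 22.3% of all 10319 genes tested (14.2% positive and 8.06% negative). SdhA had a positive interaction of 0.43 ± 0.10 (edgeR adjusted p = 0.012), which passed in 9 of 12 such fits, and its disc values differed by 0.04. COX8 had a negative one of -0.51 ± 0.14 (edgeR adjusted p = 0.023), in 10 of 12. ND-B17, at -0.58, passed in 5 of 12, and ND-SGDH, at 0.41, in none of 12. SdhA lost its interaction without wild-type disc 1, amos disc 1 or amos disc 3, and COX8 without wild-type adult 5 or 6. The count of negative interactions was 22 without wild-type disc 5, 1 without wild-type adult 6, 2 without wild-type adult 5, 4 without amos adult 3, amos disc 2 or wild-type disc 1, and 5 without wild-type adult 7 or wild-type disc 2.

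The nuclear genes were also set beside the transcripts of the mitochondrial genome, whose counts were lower in the amos stock. Over 37 mitochondrial genes the summed level was 1789, 1284 and 1275 CPM in amos adults and 11619, 13548 and 14459.9 CPM in wild-type adults, against 786, 693 and 583 CPM in amos discs and 6437, 5597 and 10332 CPM in wild-type discs. Of the 37, 26 did not meet the filter on low counts between the genotypes in either tissue. mt:ATPase8 and mt:srRNA had no read in any library, and mt:ND3 and mt:ND4L had at most 2 and 1. In the same libraries the nuclear members summed to 25312, 24272 and 22576 CPM in amos adults and 24065.5, 24216 and 23255 CPM in wild-type adults, against 10714, 9999.5 and 9975 CPM in amos discs and 9039, 8669 and 10045 CPM in wild-type discs. The mean of the nuclear sum in amos was thus 1.01 times that in wild-type adults and 1.11 times that in wild-type discs. Polyadenylated libraries capture mitochondrial RNA only as far as it carries a tail. Whether mitochondrial reads of both stocks aligned and were counted alike was not tested.

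Complex by complex, the mitochondrial and nuclear parts parted ways. The nuclear part here is the subunits within the symbol rule, so the percents below do not refer to all nuclear subunits of a complex. For complex IV, the 3 mitochondrial genes summed to 1305, 1009 and 999 CPM in amos adults and 10016, 11432 and 12311 CPM in wild-type adults, 10.2-fold lower in amos, and the nuclear subunits differed by a ratio of 0.921. The mitochondrial CPM was 30.6 to 37.1% of the nuclear CPM in amos adults and 285 to 355% in wild-type adults, and it was 35.8 to 45.2% in amos discs and 532 to 777% in wild-type discs. For complex III, whose mitochondrial subunit is cytochrome b, this value was 0.00888 to 0.111% in amos adults and 33.3 to 41.8% in wild-type adults, and 0.00877 to 0.0127% in amos discs and 29.2 to 41.5% in wild-type discs. For complex V it was 0.00769 to 0.0164% in amos adults and 4.72 to 7.63% in wild-type adults, and 0.0188 to 0.0363% in amos discs and 9.21 to 13.5% in wild-type discs. The complex V value rests on mt:ATPase6 alone, since mt:ATPase8 had no read in any library. Complex I differed least, with 3.84 to 6.33% in amos adults and 6.28 to 9.13% in wild-type adults, groups that overlapped, and 8.13 to 10.6% in amos discs and 14.0 to 21.5% in wild-type discs. Most of its mitochondrial reads lay on mt:ND1, mt:ND4 and mt:ND5, genes of the minus strand. No read was counted for mt:ND3 or mt:ND4L in any amos library.

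**Figure D5:**
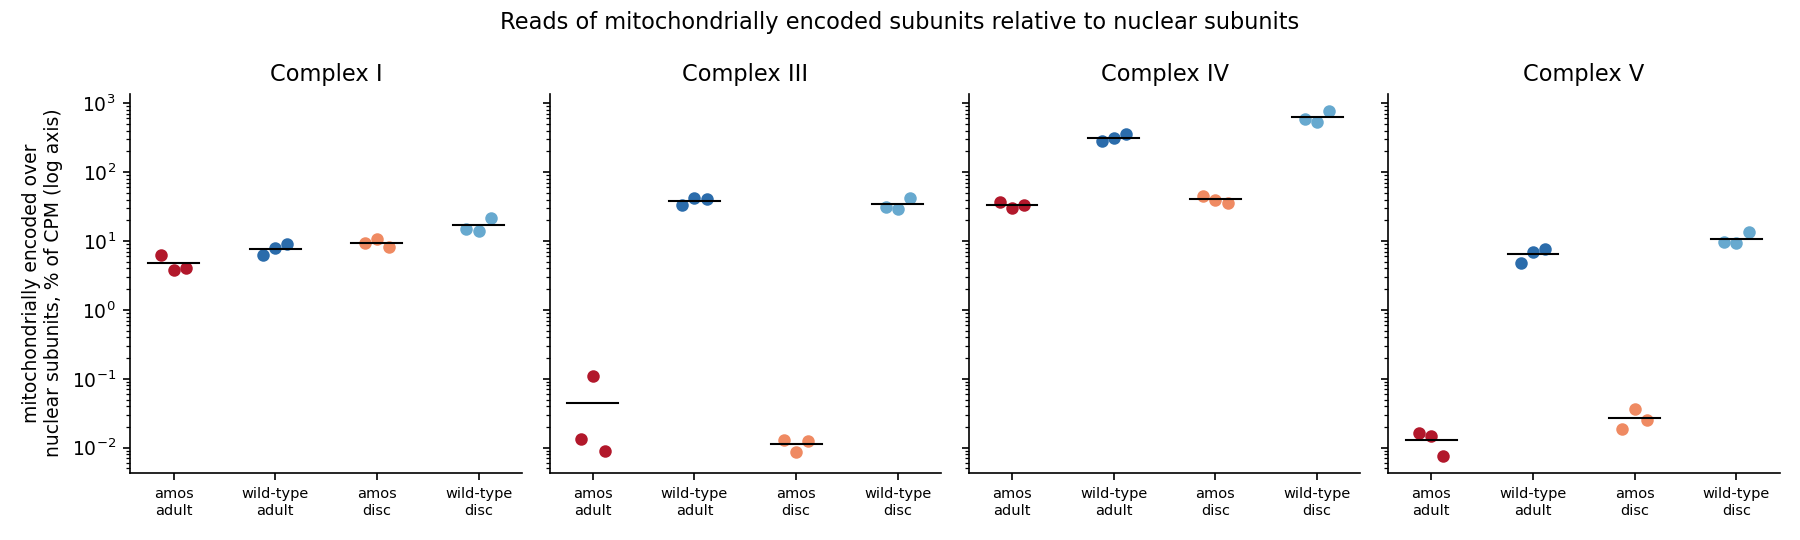
CPM of mitochondrially encoded subunits as a percent of the CPM of nuclear subunits of the same complex within the symbol rule, in each library (log axis). Lines are the means of each group (n = 3). In complexes III, IV and V every amos library lies below every wild-type library, and in complex I adults they overlap.

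By single gene, 10 of 11 tested mitochondrial genes fell in amos adults and 8 of 11 in amos discs, and none rose by edgeR. Of the 11 tested genes, 8 met the filter on low counts in both groups of each tissue. The shares called were 90.9% in adults and 72.7% in discs, beside 47.0% and 13.2% of all genes. At an unadjusted p under 0.05 no mitochondrial gene was higher in either tissue, and DESeq2 called 1 higher in adults and 0 in discs. The log2 fold changes of the cytochrome oxidase genes in adults were -4.83 for mt:CoI, -8.73 for mt:CoII and -1.58 for mt:CoIII, and in discs -5.38, -10.00 and -2.25. mt:Cyt-b, the complex III subunit, changed by -9.60 in adults and -11.36 in discs, and mt:ATPase6, of complex V, by -8.92 and -8.49. The complex I genes were uneven. Of those tested, mt:ND2 and mt:ND6 lie on the plus strand of the mitochondrial genome, as do mt:CoI, mt:CoII, mt:CoIII, mt:Cyt-b and mt:ATPase6. On the minus strand lie mt:ND1, mt:ND4, mt:ND5 and mt:lrRNA, which changed less than any of these in both tissues. The ribosomal RNA mt:lrRNA changed by -1.31 in adults and -1.52 in discs. The part of strand in these differences was not tested. mt:ND2 changed by -8.12 in adults and -7.85 in discs, and mt:ND6, against a floor of 3 reads per library, was at least 38.1-fold lower in amos adults and at least 19.8-fold lower in amos discs. mt:ND1 and mt:ND4 fell by 1.03 and 0.49 in adults, in 2 and 1 of 6 fits that left out a library, and did not pass in discs, with -0.76 and -0.34, and mt:ND5, at 0.59 in adults and 0.25 in discs, did not pass in either. Amos adult 2 held more reads on mt:CoII and mt:Cyt-b than the other amos adults. It had 1170 reads on mt:CoII against 94 and 104, and 120 reads on mt:Cyt-b against 11 and 7. Without it the adult changes were -10.60 for mt:CoII and -11.69 for mt:Cyt-b. mt:Cyt-b, mt:ND2 and mt:ND6 met the filter on low counts in wild-type only, in adults and in discs. Their calls are therefore no support, and their values are given as a description. From disc to adult, 5 of 9 tested mitochondrial genes rose in amos (55.6%) and 7 of 11 in wild-type (63.6%), where nearly all nuclear members rose. Over all genes, 43.8% rose in amos and 43.2% in wild-type. None of the 11 mitochondrial genes had an interaction that passed by edgeR (1 lower at an unadjusted p under 0.05, 0 by DESeq2).

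Subunits and carriers outside the symbol rule were listed too, among them ADP/ATP and phosphate carriers. Of these 13 genes tested in amos adults, 1 rose and 2 fell, or 23.1% called, beside 47.0% of all genes. RFeSP, the Rieske iron-sulfur protein of complex III, was at 246, 290.4 and 222 FPKM in amos adults and 437, 449.9 and 369 FPKM in wild-type adults, a fall of 0.75 (edgeR adjusted p = 0.0013). levy, a complex IV subunit, fell by 0.52, and ox, a complex III subunit, rose by 0.58. In discs ox was at 175, 141 and 152 FPKM in amos and 73.3, 56.9 and 76.0 FPKM in wild-type, a log2 fold change of 1.20 (edgeR adjusted p = 0.006). Of the 11 tested in discs it was the only one called, or 9.09%, beside 13.2% of all genes. From disc to adult, 12 of 13 rose in amos (92.3%) and 10 of 12 in wild-type (83.3%), beside 43.8% and 43.2% of all genes.

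Other mitochondrial gene groups differed in direction between the stages. Over all genes tested, 43.8% were called higher and 41.8% lower in amos adults than in amos discs. In wild-type these shares were 43.2% and 43.4%. Of 17 genes of the tricarboxylic acid cycle, which supplies NADH and succinate, 15 rose from disc to adult in amos and 15 in wild-type, where 1 fell. Of 12 genes of glycolysis, 12 rose in amos and 11 in wild-type. Cytoplasmic ribosomal protein genes went the other way, with 81 of 82 lower in adults than in discs in amos and 78 of 83 lower and 1 higher in wild-type. The mitochondrial ribosomal protein genes were split, with 30 of 70 higher and 13 lower in amos adults than in amos discs and 27 higher and 17 lower in wild-type. The share of them called, 61.4% in amos and 62.9% in wild-type, was under the 85.6% and 86.6% of all genes. Of 10 genes that maintain or transcribe mitochondrial DNA, 6 fell and 1 rose in amos and 7 fell and 1 rose in wild-type. Among 4 regulators of mitochondrial gene expression, 1 rose and 2 fell in each genotype. The one that rose was ERR, a nuclear receptor, at 41.1, 39.4 and 32.1 FPKM in amos adults and 27.3, 27.9 and 25.7 FPKM in wild-type adults, against 11.5, 11.3 and 11.7 FPKM in amos discs and 10.4, 10.4 and 10.1 FPKM in wild-type discs. By comparison srl, the fly counterpart of the coactivator PGC-1, was at 1.20, 1.14 and 1.46 FPKM in amos adults and 1.46, 1.86 and 1.53 FPKM in wild-type adults, against 32.1, 32.9 and 29.7 FPKM in amos discs and 40.7, 41.1 and 36.8 FPKM in wild-type discs.

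Between the genotypes the same groups were mixed in adults. Over all genes tested, 47.0% were called in adults and 13.2% in discs. The shares called in adults and discs were 20% and 10% for mitochondrial DNA maintenance and transcription and 47.1% and 17.6% for the cycle. They were 27.1% and 17.1% for mitochondrial ribosomal proteins and 50% and 9.09% for glycolysis. The counts of these groups are therefore given as a description. Of the 10 genes of mitochondrial DNA maintenance and transcription, 1 rose and 1 fell in amos adults, and 1 fell in amos discs. The 17 cycle genes had 5 higher and 3 lower in amos adults and 1 higher and 2 lower in amos discs. Mitochondrial ribosomal protein genes had 13 higher and 6 lower of 70 in amos adults and 10 higher and 2 lower in amos discs. Among the regulators ERR rose by 0.45 and ewg fell by 0.29 in amos adults, and srl fell by 0.31 in amos discs. Of the glycolysis genes, 2 rose and 4 fell in amos adults and 1 of 11 fell in amos discs, and Ldh, which makes lactate from pyruvate, was at 29.9, 32.0 and 42.2 FPKM in amos adults and 6.31, 6.13 and 5.86 FPKM in wild-type adults, a log2 fold change of 2.49 (edgeR adjusted p = 1.1e-05). Muscle, a tissue rich in mitochondria, had marker levels of 114 to 247 CPM in amos adults and 30.0 to 128 CPM in wild-type adults, with 2 of 7 markers higher and 1 lower by test. Its part in the adult differences of the members was not tested.

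The duplicate copies hardly contributed to the totals, and several were read in 1 stage more than in the other. They took 0.0229% of the member reads in amos adults and 0.0289% in wild-type adults, and 8 of the 23 copies had no read in any of the 12 libraries, while 7 exceeded 10 reads in at least 1. Many such copies in flies are known for expression in the testis, a tissue not sampled here.

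ATPsynepsilonL, a copy of the epsilon subunit gene of complex V, was the only tested member with a negative log2 fold change from disc to adult. It had 22, 18 and 14 reads in amos adults and 14, 9 and 8 in wild-type adults, against 197, 216 and 175 in amos discs and 45, 59 and 61 in wild-type discs. The log2 fold change from disc to adult was -3.07 in amos (edgeR adjusted p = 5.3e-05). In wild-type it met the filter in discs only, so no test is given there. In amos discs it was also higher than in wild-type discs, by 1.22 ± 0.24 (edgeR adjusted p = 0.027), a call that passed in 1 of 6 fits that left out a library.

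Other copies were read almost only in adults. UQCR-11L had 20, 31 and 20 reads in amos adults and 57, 75 and 45 in wild-type adults, against at most 2 in any disc library. Against a floor of 3 reads per library, it was at least 7.89-fold higher in adults than in discs in amos and at least 21.0-fold higher in wild-type. Between the adults it fell by 2.05 on the log2 scale in amos (edgeR adjusted p = 0.00052). COX6CL had 0, 4 and 0 reads in amos adults and 25, 20 and 16 in wild-type adults, against none in the discs, and COX5BL had 0, 6 and 3 reads in amos adults and 12, 21 and 17 in wild-type adults. The reads of COX6CL and of COX5BL in amos adults thus lay below those in wild-type adults. Both met the filter on low counts in wild-type adults only, so that a gene admitted this way had to differ, and no test is given for them. The exons of COX5BL lie wholly within those of a gene on the opposite strand.

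COX7AL2 ran the other way, with 67, 60 and 111 reads in amos adults and 7, 22 and 5 in wild-type adults. It met the filter in amos adults only, so no test is given for it. COX7AL had 83, 88 and 84 reads in amos adults and 45, 37 and 36 in wild-type adults, a difference of 0.40 after normalization that did not pass (edgeR adjusted p = 0.16). In the discs COX7AL had 2, 17 and 9 reads in amos and 2, 4 and 9 in wild-type, under the filter in both. Sdhaf3, the assembly factor, was higher in adults than in discs by 0.73 in amos (edgeR adjusted p = 0.0053) and 0.47 in wild-type (edgeR adjusted p = 0.034). Its adults and discs overlapped in CPM in both genotypes, and its wild-type call did not hold in every fit that left out a library. The adult difference of 0.26 in Sdhaf3 between the genotypes did not pass (edgeR adjusted p = 0.15).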

How the data were processed

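Polyadenylated RNA of 3 amos adult antenna, 3 wild-type adult antenna, 3 amos disc and 3 wild-type disc samples was sequenced in stranded libraries. The submitters' processing notes name cutadapt 1.2.1, TopHat2 2.0.9, HTSeq 0.5.4p3 and build BDGP5, whereas the paper's methods name the trimmer Skewer and other versions. The authors deposited raw counts, 1 table per sample, for 15682 genes and 5 lines of unassigned reads, which were left out of library sizes. The strand setting and overlap mode are not given in the sources used here, so overlapping and antisense genes are uncertain.

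Symbols (15001 genes) came from the supplied gene table, and exon lengths and chromosomes (15002 genes) from Ensembl release 115 (assembly BDGP6.54). No genome sequence was used here. CPM and FPKM (union of exons) were computed from the deposited counts and reads on genes. Tests were the quasi-likelihood F-test in edgeR 4.0.16 (R 4.3.3) after filterByExpr and TMM scaling, with p-values adjusted by Benjamini-Hochberg over all tested genes and a threshold of 0.05, run separately for each genotype and stage comparison and over all 12 samples for the interaction. Alternatives were DESeq2 1.42.0, scaling by total count or on ribosomal protein genes, mitochondrial genes left out, no filter, at least 10 counts in every sample, the length trend removed, 1 fit over the 12 samples, each library left out in turn and, where labels share numbers, the replicate number as a block. The test was checked on simulated counts, with 100 genes changed by 1 and 100 by 2 on the log2 scale. Of those changed by 1, it recovered 96 between adult genotypes and 70 between disc genotypes. It recovered 71 and 80 between stages in wild-type and amos, and 61 for the interaction. Unchanged genes called numbered 24, 12, 22, 20 and 5 in that order. Spearman correlations used scipy 1.17.1. Exact permutation tests compared the difference of means over every division of the pooled samples. Libraries differed by more than sampling noise, and the p-values measure the spread between these samples. Floors of 3 reads cover counting error only, since PCR reads are not independent molecules.

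The members and lists were chosen with earlier results of these data known. Genes were named by a rule of abundance and of change. The rule took the 2 most abundant subunits of each complex in wild-type adults, the 4 members with the largest rise and the 4 with the largest fall among those called in each comparison, members called with 1 direction in both genotype comparisons (there were none), the 3 largest called interactions of each sign, the duplicate copies, the protein-coding mitochondrial genes and amos. Other genes were named after their values were seen.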

Additional observations from a re-analysis of the deposited data

Results flagged for a closer look

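For 10 members the difference between amos and wild-type was not the same in adults and in discs by the test of the interaction (edgeR adjusted p under 0.05). Negative values, a lower adult than disc difference, were -0.90 for ND-39, -0.58 for ND-B17, -0.51 for COX8, -0.49 for COX4, -0.46 for ND-13B, -0.44 for ATPsynE, -0.41 for COX6B and -0.39 for ND-B14.7 on the log2 scale. Positive values were 0.43 for SdhA and 0.41 for ND-SGDH. Of these, only ND-39 passed in every fit that left out 1 library, and with ribosomal protein scaling ND-39, SdhA and ND-SGDH passed. COX6B, a subunit that faces the intermembrane space, had an adult log2 fold change of -0.20 and a disc one of 0.28 in the separate fits, neither past the threshold.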

How the results depend on the processing

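Scaling and single libraries moved the genotype calls more than the stage calls. Counts are members called higher and lower by edgeR unless another tool is named. In amos against wild-type adults the counts were 23 and 3 with ribosomal protein scaling, and 10 lower in 1 fit over all 12 samples. With ribosomal protein scaling the signs of ATPsyndelta (0.0477), ND-B18 (0.0138) and ND-PDSW (0.0219) turned. Without 1 library at a time the counts were 4 to 16 higher and 9 to 17 lower. In discs the count higher was 14 by DESeq2, 4 with ribosomal protein scaling and 13 in 1 fit over all samples, with 1 lower once the length trend was removed, and it was 0 to 20 without 1 library. In wild-type adults against discs the count lower was 0 with ribosomal protein scaling and with at least 10 counts in every sample, and 2 with the length trend removed, where ND-AGGG became -0.19. Positive interactions numbered 1 with total-count scaling, without the filter, with at least 10 counts and with the length trend removed, and 4 with ribosomal protein scaling. Negative ones numbered 1 with ribosomal protein scaling and 5 without the filter. Without 1 library there were 0 to 1 positive and 1 to 22 negative interactions.

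For the mitochondrial genes, DESeq2 and ribosomal protein scaling each called 1 higher in amos adults, and with at least 10 counts 6 were lower in adults and 5 in discs. In discs the count higher was 0 to 1 without 1 library. The median level of complex V over that of complex I in wild-type adults was 2.84 with the longest transcript and 2.96 with CPM in place of FPKM.

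A further fit took the replicate number as a block. Deviations from the group means correlated at -0.199 and -0.146 for same-numbered amos and wild-type discs. For same-numbered amos adults and discs they correlated at 0.111, 0.0192 and 0.0342, and for wild-type adult 5 and disc 5 at -0.108. Such deviations cancel within each group of 3, so they cannot settle whether the numbers pair the samples. With the block, 22 members were higher in discs, 1 mitochondrial gene was higher in discs, and the interactions passed for 0 positive and 1 negative. The amos stage counts were 65 higher and 1 lower with it. The adult genotypes share no number, so no paired fit was made there.

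Calls of single named genes kept their direction and side of the threshold in 426 of 526 combinations of gene and alternative in adults, 188 of 237 in discs, 325 of 331 and 342 of 342 in the wild-type and amos stage comparisons and 122 of 200 interactions. The cause of these changes was not tested. Depth limits the duplicate copies most, since 16 of the 23 never exceeded 10 reads.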
